A study of Homo sapiens and Mus musculus with 19 samples.

Results

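The cadherin and desmosomal cadherin genes were described through DNA methylation at CCGG sites in 2 human cell lines. The set held 30 autosomal protein-coding genes of 19126 in all: every gene whose symbol is CDH and a number, the desmocollins DSC1, DSC2 and DSC3, and the desmogleins DSG1, DSG2, DSG3 and DSG4. The genes were picked by symbol and their classes set by known tissue, both with earlier results of these data known. The epithelial members were CDH1, CDH3, CDH16, CDH17, CDH26, the 3 desmocollins and the 4 desmogleins, 12 in all. The 11 neural members were CDH2, CDH4, CDH7, CDH8, CDH9, CDH10, CDH12, CDH18, CDH19, CDH20 and CDH22. The 7 other members were CDH5, CDH6, CDH11, CDH13, CDH15, CDH23 and CDH24.

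Cadherins are calcium-dependent adhesion proteins of the cell surface, and most bind the same cadherin on the neighbouring cell. Classical cadherins join the actin cytoskeleton through catenins. Desmocollins and desmogleins join keratin filaments through plakoglobin, plakophilins and desmoplakin in desmosomes, which hold epithelial sheets together. Epithelial cells, liver cells included, are known for CDH1 (E-cadherin), and neural tissue uses a larger set of cadherins, many of them long genes in gene-poor DNA.

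The libraries came from HepG2, labelled as a liver line from hepatocellular carcinoma, and from H1ES, labelled as an embryonic stem cell line. For each, 2 libraries pooled 1000 cells and 5 held a lone cell, and no treatment or genotype is given for either. Each group is 1 cell line, so a difference between them is between these lines and not between tissues. A CCGG site carries 1 CpG. HpaII cuts it only when it is unmethylated, and MspI also cuts when it is methylated. The deposited values hold tags of 3 kinds, which give shares of unmethylated, 5-methylcytosine (5mC) and 5-hydroxymethylcytosine (5hmC) copies. The cutting rules above do not by themselves separate 5mC from 5hmC, and that split was taken as deposited. A gene region here is the span of the gene in GRCh38 with 2 kb upstream, and its 5mC is the share of its tags that carry the 5mC tag.

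The 1000-cell libraries held 5977422 and 5146348 tags in HepG2, against 6644517 and 4911898 in H1ES. Over all autosomal tags, 5mC was 60.6% and 61.7% in HepG2 and 93.6% and 94.2% in H1ES, so 5mC was lower in HepG2 across the genome. HepG2 cells 3 and 5 held 2455908 and 2434482 tags, and the other 3 HepG2 cells between 526207 and 611318. H1ES cells held between 757767 and 1543724. Near gene starts, hepatocyte marker genes were unmethylated in 83.6% and 81.9% of tags in HepG2 and in 0.952% and 7.04% in H1ES, with tags at 5 of 7 genes. HNF4A gave 54 of 116 and 62 of 127 of these HepG2 tags. With libraries pooled, SERPINA1 was unmethylated in 37.1% in HepG2 and 2.33% in H1ES. APOA1 was unmethylated in 50% of 8 tags in HepG2 and 28.6% of 14 tags in H1ES. Near their starts, pluripotency marker genes were unmethylated in 16.1% and 25.2% of tags in HepG2 and in 68.3% and 71.7% in H1ES. Tags were present at 6 of 6 genes, but DPPA4 and LIN28B did not separate the lines. With libraries pooled, DPPA4 was unmethylated in 79.2% in HepG2 and 78.9% in H1ES, and LIN28B in 0% in both. At 4 fibroblast marker genes the shares were 45.5% and 55.3% in HepG2 and 48.0% and 45.5% in H1ES.

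In HepG2 the epithelial members held far more 5mC than the neural members, and in H1ES the classes were alike to within about a point. Pooled over the 12 epithelial members, 5mC was 64.8% and 66.9% in the 2 HepG2 libraries (65.9% ± 1.51, SD, n = 2), against 94.4% and 95.5% in the 2 H1ES libraries (94.95% ± 0.829, SD, n = 2). Over the 11 neural members it was 31.2% ± 1.17 in HepG2 and 95.7% ± 0.393 in H1ES (SD, n = 2 each). The other members stood at 34.8% ± 0.159 in HepG2 and 95.6% ± 0.191 in H1ES (SD, n = 2 each). Epithelial minus neural members came to 34.4 and 34.9 percentage points in the HepG2 libraries and to -1.01 and -0.40 in the H1ES libraries. CDH1 gave many of the epithelial tags, and without it the epithelial share in HepG2 was 55.8% ± 1.72 (SD, n = 2). Against the 60.6% and 61.7% of all autosomal tags, the epithelial share was thus higher with CDH1 and lower without it, and it was above the neural share both ways. An equal weight for every gene gave medians of 58.6% in HepG2 and 96.0% in H1ES for epithelial members, and of 27.1% in HepG2 and 96.5% in H1ES for neural members. Over all genes tested the medians were 75.6% in HepG2 and 92.4% in H1ES. A library of 1000 cells is a pool, so a middle share from some cells and one from some gene copies cannot be told apart in it.

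**Figure D1:**
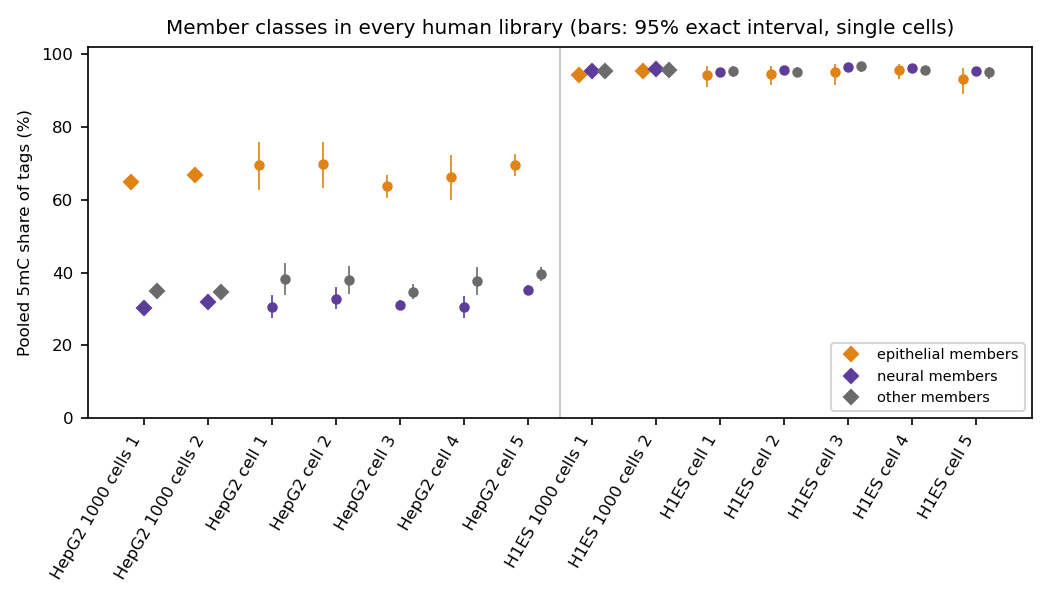
Pooled 5mC share of tags (y axis, percent) of epithelial, neural and other members in every human library (x axis), HepG2 left of H1ES; diamonds are 1000-cell libraries, circles single cells with 95% exact binomial intervals. In HepG2 the epithelial members lie between 63.7% and 69.9% and the neural members between 30.3% and 35.3%, while in H1ES all classes lie above 93%.

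The same separation was seen cell by cell. Epithelial minus neural 5mC was 39.1, 37.0, 32.5, 35.7 and 34.3 points in the 5 HepG2 cells, and -0.77, -1.20, -1.37, -0.56 and -2.16 points in the 5 H1ES cells. Every HepG2 cell lay above every H1ES cell. Each cell is 1 library and no culture is named, so no test was made over cells.

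Member by member, 27 of the 30 genes fell in HepG2, 0 rose and 3 did not pass the test. The test was edgeR's quasi-likelihood test of 5mC tags against all other tags, with p-values adjusted by Benjamini-Hochberg over 15722 genes. All 30 members passed its minimum of 20 tags in every library. Of all genes tested 54.9% fell and 2.8% rose. The median change, in log2 odds of 5mC, was -4.65 over the members and -1.24 over all genes. By class, 10 of 12 epithelial members fell (median -4.12), 10 of 11 neural members (median -5.88) and 7 of 7 other members (median -4.56). The 2 HepG2 libraries lay below both H1ES libraries in 27 members, as in 68.3% of all genes with enough tags. The members that did not pass were CDH2, DSC2 and DSG2. No member rose at an unadjusted p under 0.05 in edgeR or at an adjusted p under 0.05 in DESeq2, and limma on logit shares called DSG2 higher (adjusted p = 0.00433).

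The line-wide drop was then set aside by measuring each gene against the odds of 5mC over its whole library. This moved the median of all genes to 2.02, and 63.1% of genes then rose and 17.5% fell, 80.6% in all. On this scale 20 members fell and 6 rose. CDH1, DSG2, DSC2 and DSC3 of the epithelial members rose, CDH2 was the 1 of 11 neural members that rose, and CDH24 rose of the other members. Of these 6, CDH1 (1.66) and CDH24 (1.89) lay below the median of all genes on this scale. The other 10 neural members fell on this scale too, as did CDH3, CDH16, CDH17 and CDH26. The 2 libraries of a group share no stated culture, so every p-value here measures the spread between these libraries, which may be technical.

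**Figure D2:**
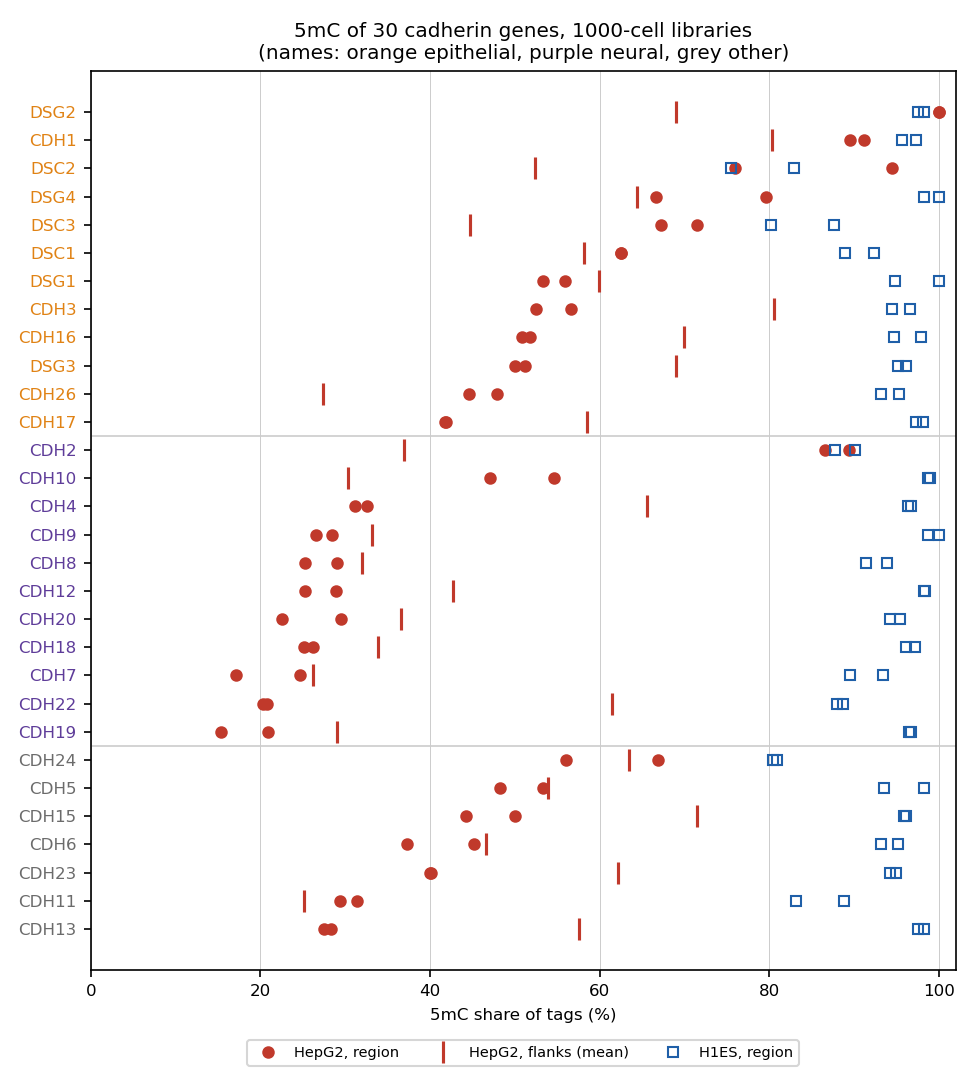
5mC share of tags (x axis, percent) of each member (rows) in the 1000-cell libraries; filled red circles are HepG2 libraries, open blue squares H1ES libraries, and red bars the mean 5mC of the flanking DNA in HepG2. DSG2, CDH1, DSC2 and CDH2 lie at 75.9% or above in HepG2, and 10 neural members lie between 15.4% and 54.6%.

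Among the epithelial members CDH1, the E-cadherin of adherens junctions (chr16:68737292-68835537), stayed highly methylated in HepG2. It held 89.5% 5mC over 707 tags and 91.2% over 600 tags in HepG2, against 97.2% over 509 and 95.7% over 349 tags in H1ES. Both HepG2 libraries were lower, by a small margin (log2 odds -1.61, SE 0.287, adjusted p = 2.26e-07). Relative to library odds the sign turned to 1.66 (SE 0.346, adjusted p = 3.27e-06), which is below the median of 2.02 over all genes on that scale. CDH3, the P-cadherin of basal epithelial layers, is the neighbour of CDH1 (chr16:68645310-68733771). It held 52.6% over 647 tags and 56.7% over 533 tags in HepG2, against 94.5% over 595 and 96.6% over 357 tags in H1ES. It fell by 40.9 points (log2 odds -4.07, SE 0.198, adjusted p = 3.65e-47), so these 2 neighbours differed widely in HepG2 and little in H1ES.

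CDH17, the cadherin of the liver and intestine in the rat and of the gut in humans, held 41.7% 5mC over 163 tags and 41.9% over 129 tags in HepG2. In H1ES it held 97.3% over 225 tags and 98.1% over 156 tags. It was the lowest of the epithelial members in HepG2 and fell by 55.9 points (log2 odds -5.81, SE 0.353, adjusted p = 2.88e-36). CDH16, a kidney cadherin, averaged 51.3% ± 0.701 in HepG2 and 96.3% ± 2.23 in H1ES (SD, n = 2 each). CDH26 averaged 46.2% ± 2.26 in HepG2 and 94.2% ± 1.48 in H1ES (SD, n = 2 each).

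The desmosomal cadherins lie side by side on chromosome 18 and ranged in HepG2 from about 50% to 100% 5mC. DSG2, the desmoglein of simple epithelia (chr18:31498177-31549008), carried 5mC on 60 of 60 and 64 of 64 tags in HepG2, against 97.6% of 83 and 98.3% of 58 tags in H1ES. With 0 other tags in HepG2, a share of up to 5.00% and 4.69% is allowed by 3 counts (counting error only), and no fold is given (adjusted p = 0.101). DSC2, the desmocollin found in all desmosomal tissues, held 94.4% and 75.9% over 54 tags each in HepG2, against 75.5% over 53 and 83.0% over 47 tags in H1ES. The groups overlapped (log2 odds 0.61, SE 0.562, adjusted p = 0.371). The log2 odds were 2.13 without the second HepG2 library (adjusted p = 0.0396) and -0.25 without the first. DSC3 fell to 71.4% and 67.2% in HepG2, against 80.2% and 87.6% in H1ES (adjusted p = 0.00662). That call is lost in DESeq2 (adjusted p = 0.104) and without the second library of HepG2 (0.0626) or of H1ES (0.111). The skin desmosomal genes DSC1, DSG1, DSG3 and DSG4 all fell, with HepG2 means of 62.5%, 54.6%, 50.6% and 73.2% and H1ES means of 90.6%, 97.4%, 95.7% and 99.1%. None of these 4 passed the test on the scale of library odds. Desmosomal members rest on 32 to 106 tags per library, so their shares are less precise than those of the long genes.

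Of the neural members, CDH2 (N-cadherin, chr18:27932879-28177130) was the exception. N-cadherin is known from neurons, muscle and mesenchyme, and also from hepatocytes. It held 86.6% 5mC over 284 tags and 89.4% over 254 tags in HepG2, against 87.8% over 320 and 90.1% over 302 tags in H1ES. The groups overlapped and did not differ beyond the spread of the libraries (log2 odds -0.14, SE 0.278, adjusted p = 0.6998). The sign turned when the first HepG2 library (0.07) or the second H1ES library (0.01) was left out. Relative to library odds CDH2 rose by 3.15 (SE 0.289, adjusted p = 2.65e-26).

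The 6 largest falls in percentage points were in 5 neural members and CDH13. CDH19, a cadherin of the neural crest and Schwann cells, held 20.8% over 48 tags and 15.4% over 52 tags in HepG2, against 96.7% over 91 and 96.4% over 84 tags in H1ES. CDH9 held 28.4% and 26.5% in HepG2, against 98.7% and 100% in H1ES. CDH12 held 25.2% and 28.9% in HepG2, against 98.4% and 98.3% in H1ES. These are type II cadherins, and in each both HepG2 libraries lay far below both of H1ES. CDH18, another type II cadherin of the brain, held 26.2% and 25.2% in HepG2, against 96.1% and 97.2% in H1ES. CDH7 held 17.1% and 24.7% in HepG2, against 93.5% and 89.5% in H1ES. CDH13, the cadherin with a lipid anchor in place of a cytoplasmic tail, held 27.5% over 3145 tags and 28.3% over 2763 tags in HepG2, against 97.6% over 2704 and 98.2% over 2142 tags in H1ES. The log2 odds of these 6 ran from -5.40 in CDH7 (SE 0.338, adjusted p = 6.96e-35) to -8.44 in CDH9 (SE 0.481, adjusted p = 3.34e-39).

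The rest of the neural members held less 5mC in HepG2 as well. CDH4, the R-cadherin of retina and brain, had the most tags of the neural members, with 31.2% over 6944 and 32.6% over 5755 tags in HepG2, against 96.3% over 4838 and 96.7% over 3127 tags in H1ES. CDH22 averaged 20.5% ± 0.310 in HepG2 and 88.4% ± 0.470 in H1ES, and CDH8 27.1% ± 2.68 in HepG2 and 92.7% ± 1.74 in H1ES (SD, n = 2 each). CDH20 averaged 26.0% ± 4.91 in HepG2 and 94.8% ± 0.793 in H1ES. CDH10 was the highest of them after CDH2, with 50.8% ± 5.35 in HepG2 and 98.8% ± 0.202 in H1ES (SD, n = 2 each).

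Of the other members, CDH23, part of the tip links of hair cells, averaged 40.1% ± 0.0312 in HepG2 and 94.6% ± 0.521 in H1ES (SD, n = 2 each). CDH5, the cadherin of blood vessel lining, averaged 50.8% ± 3.60 in HepG2 and 95.9% ± 3.41 in H1ES. CDH6, of kidney and brain, averaged 41.2% ± 5.55 in HepG2 and 94.1% ± 1.41 in H1ES. CDH11, of bone and mesenchyme, averaged 30.4% ± 1.43 in HepG2 and 86.0% ± 3.99 in H1ES. CDH15, of skeletal muscle, averaged 47.1% ± 4.04 in HepG2 and 96.0% ± 0.129 in H1ES. CDH24 had the smallest fall of this class, with 61.5% ± 7.62 in HepG2 and 80.7% ± 0.366 in H1ES (adjusted p = 0.000476), and 0.0800 without the first H1ES library. CDH23, CDH24 and CDH15 overlap other genes in the annotation, whose sites cannot be told apart from theirs.

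The single cells were read for the same members. CDH4 held 31.4% to 36.6% (median 32.2%) in HepG2 cells, against 94.9% to 96.9% (median 95.7%) in H1ES cells. CDH1 held 92.2%, 93.8%, 91.2%, 90.7% and 91.3% in HepG2 cells, against 100%, 98.6%, 97.0%, 95.8% and 94.5% in H1ES cells. All 5 HepG2 cells were below all 5 H1ES cells in both genes. CDH3 held 64.2%, 53.8%, 55.0%, 52.2% and 61.5% in HepG2 cells, against 93.4%, 94.9%, 94.2%, 96.9% and 94.2% in H1ES cells. CDH2 held 100%, 100%, 93.6%, 64.3% and 91.7% in HepG2 cells, against 90.2%, 88.9%, 93.3%, 94.4% and 90.7% in H1ES cells. The groups did not overlap for CDH3 and did for CDH2. The low CDH2 value, in HepG2 cell 4, rests on 14 tags with an exact 95% interval (Clopper-Pearson) from 35.1% to 87.2%. CDH17 held 35.7%, 63.6%, 44.8%, 18.8% and 35.8% in HepG2 cells over 11 to 67 tags, against 100% in 4 H1ES cells and 95.2% in the last. DSG2 held 87.5% to 100% in HepG2 cells over 6 to 45 tags, against 93.3% to 100% in H1ES cells. DSC2 had as few as 3 tags in a cell, with 66.7% to 100% in HepG2 cells and 63.6% to 87.5% in H1ES cells, and no difference was detectable at this depth.

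Over all 30 members, those with more 5mC in HepG2 tended to lie in DNA with more 5mC, and a few stood out from their surroundings. The flanks were taken as 500 kb on each side, leaving out all member regions. In HepG2 the median flank held 62.1% 5mC around epithelial members, 33.9% around neural members and 57.6% around other members. In H1ES these medians were 95.9%, 97.8% and 93.7%. Across the 30 members, 5mC of the region in HepG2 went with that of the flank (Spearman 0.506, Pearson 0.459) and against gene length (Spearman -0.581). These are correlations across genes that share chromosomes and libraries, and they carry no p. Within the 11 neural members the Spearman value with the flank was 0.245 and the Pearson value -0.065. Within the 12 epithelial members the Spearman value was 0.182 and the Pearson value 0.266. The link with the flank over all 30 members was thus weaker or absent within these classes. With gene length the Spearman value was 0.418 within the neural and 0.063 within the epithelial members. The negative Spearman value over all 30 members was therefore not seen within the neural or the epithelial class. The Pearson value with gene length was -0.435 over all 30 members, -0.117 within the neural and 0.024 within the epithelial members. No such value was computed within the other members.

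CDH2 stood furthest above its flanks. The flanks of CDH2 held 36.9% ± 2.44 in HepG2 and 97.6% ± 0.427 in H1ES (SD, n = 2 each). The region minus the flanks came to 47.9 and 54.1 points in the HepG2 libraries, against -9.44 and -7.79 points in the H1ES libraries. DSC2 was above its flanks by 32.8 ± 14.5 points in HepG2, DSG2 by 31.0 ± 0.236, DSC3 by 24.6 ± 4.16, CDH10 by 20.5 ± 1.09 and CDH26 by 18.9 ± 1.19 (SD, n = 2 each). CDH1 was above its flanks by 10.02 ± 1.16 points in HepG2 and by 1.49 ± 1.11 in H1ES (SD, n = 2 each). At the other end CDH22 was below its flanks by 41.0 points in HepG2 (-41.0 ± 0.854), CDH4 by 33.7 (-33.7 ± 0.774), CDH13 by 29.7 (-29.7 ± 0.248) and CDH3 by 25.9 (-25.9 ± 2.72). The flanks of CDH3 differed by side in HepG2. Bins of 10 kb next to it, on the side away from CDH1, held 54.2% to 66.1%. Those from 120 to 250 kb past the start of CDH1 held 83.3% to 100%. In both HepG2 libraries the region exceeded the flanks in 7 of 12 epithelial, 2 of 11 neural and 1 of 7 other members. Flanks were not read for all genes, so how common this is over all genes is not known. Among the 7 epithelial members, DSC1, DSC2, DSC3, DSG2 and DSG4 are neighbours on chromosome 18 whose flanks overlap, so they do not count separately.

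**Figure D3:**
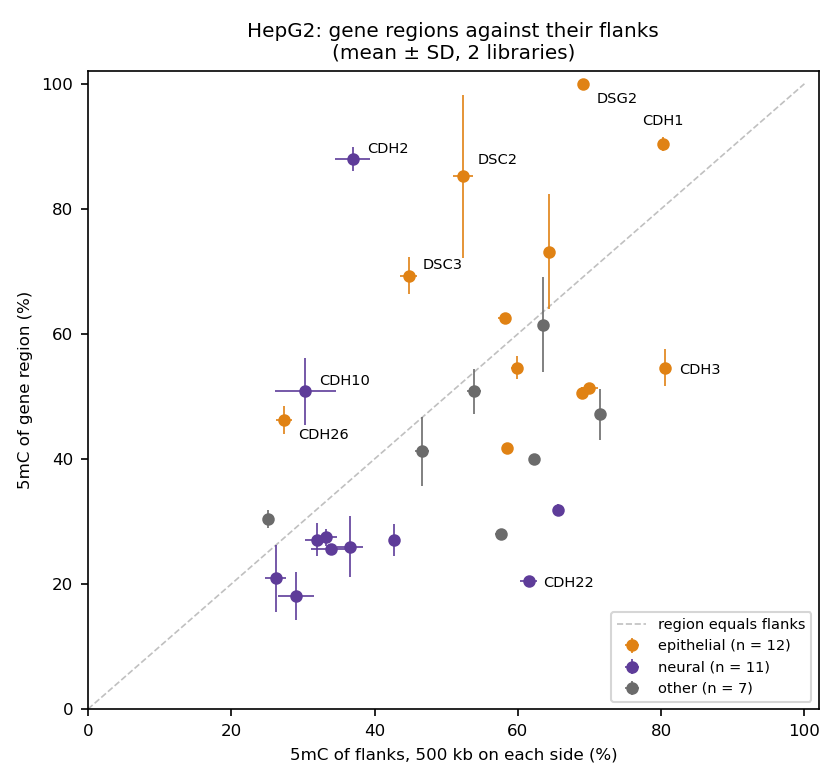
5mC of each gene region (y axis, percent) against 5mC of the 500 kb on each side (x axis, percent) in the HepG2 1000-cell libraries; points are means and bars SD of 2 libraries. CDH2 lies at 88.0% over flanks of 36.9%, and CDH22 at 20.5% over flanks of 61.5%.

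Along CDH2 the high 5mC filled the gene and ended near its 3′ end in HepG2. Bins of 20 kb from 20 to 220 kb downstream of the start held 86.9% to 100% in HepG2 and 75.0% to 100% in H1ES. The bin from 240 to 260 kb, which contains the gene's end, held 33.7% over 83 tags in HepG2 and 95.2% over 105 tags in H1ES, and the bin after it 6.5% over 31 tags in HepG2 and 97.5% over 40 tags in H1ES. Upstream, bins with at least 10 tags from 240 to 60 kb before the start held 13.3% to 63.6% in HepG2 and 95.8% to 100% in H1ES. Nearer the start, the bin from 40 to 20 kb before it held 64.8% over 71 tags in HepG2 and 96.1% over 103 tags in H1ES. The last 20 kb before it held 59.3% over 59 tags in HepG2 and 50.7% over 75 tags in H1ES, so HepG2 was not the lower line there. In DSG2 the bins of 10 kb from 10 to 50 kb held 100% in HepG2 and 95.1% to 100% in H1ES. The bin that holds the end of the gene and the bin after it held 62.8% and 36.8% in HepG2 and 95.7% and 100% in H1ES. Further on, HepG2 had 89.5% from 70 to 80 kb, 24.0% from 80 to 90 kb and 72.7% to 96.5% in the bins from 90 to 160 kb, against 90.5% to 100% in H1ES over these bins, so high 5mC was not limited to DSG2.

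In percentage points CDH1 differed between the lines more near its end than along its body. Within 10 kb of the end taken as its start, 5mC was 58.5% and 63.8% in HepG2, against 75.0% and 74.2% in H1ES. Beyond 10 kb it was 92.9% and 93.4% in HepG2, against 98.9% and 97.8% in H1ES. In the 150 kb on the side of CDH3, 10 kb bins held 26.4% to 70.1% in HepG2 and 56.6% to 100% in H1ES. On the other side the 2 bins from 100 to 120 kb held 66.5% and 77.1% in HepG2, against 92.7% and 100% in H1ES. Beyond them, bins from 120 to 250 kb held 83.3% to 100% in HepG2 and 92.2% to 100% in H1ES. High 5mC on that side was therefore not limited to CDH1. Most of the 150 kb on the side of CDH3 is the CDH3 region itself, which was left out of the flanks. The bins beyond that region, from 150 to 100 kb before the end taken as the start of CDH1, held 54.2% to 66.1% in HepG2. Within the bins read, the flanks of CDH1 thus join a lower side and a higher one. The neural gene CDH8 held 22.8% and 27.1% beyond 10 kb in HepG2, against 95.8% and 97.1% in H1ES. In its first 10 kb the order was the other way, with 56.8% over 44 and 51.4% over 37 tags in HepG2, against 33.3% over 33 and 42.9% over 28 tags in H1ES.

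**Figure D4:**
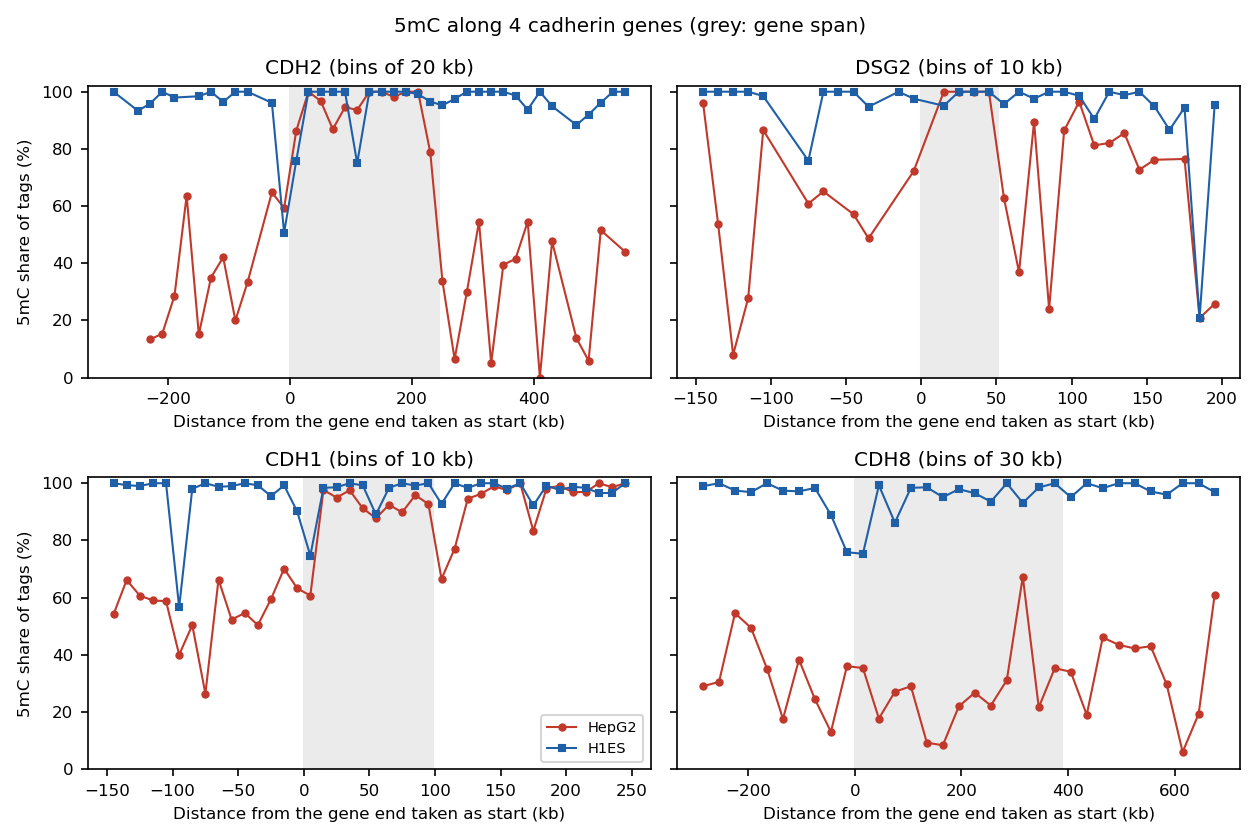
5mC share of tags (y axis, percent) in bins along CDH2, DSG2, CDH1 and CDH8 against the distance from the gene end taken as start (x axis, kb), 2 libraries pooled per line, bins of at least 10 tags, gene span in grey. In HepG2 the bins from 0 to 240 kb of CDH2 hold 78.8% to 100%, and most bins of its flanks lie under 60%, and CDH8 is low along most of its span and outside it.

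Single sites of the regions ranged from low to high in HepG2, and many lay between. Sites with at least 5 tags over the 2 libraries of a line were counted as low (at most 20% 5mC), high (at least 80%) or between. Of 1419 neural sites in HepG2, 750 were low, 490 between and 179 high, against 25, 46 and 1332 of 1403 sites in H1ES. Of 314 epithelial sites in HepG2, 64 were low, 80 between and 170 high, against 8, 13 and 272 of 293 sites in H1ES. Thus 52.9% of neural and 20.4% of epithelial sites in HepG2 were low, and 34.5% of neural and 25.5% of epithelial sites lay between. With as few as 5 tags at a site, counting error alone can move it from one kind to another. CDH1 had 72 of 80 sites high in HepG2 and 63 of 67 in H1ES, CDH2 42 of 51 in HepG2 and 44 of 49 in H1ES, and DSG2 12 of 12 in both lines. In CDH19, 10 of 11 sites were low in HepG2 and 0 of 16 in H1ES. In CDH8, 56 of 92 sites were low in HepG2 and 6 of 93 in H1ES.

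Gene starts were thinly covered, and few members could be read there. Where CCGG sites crowd together, few carry a tag: of member sites with no other CCGG within 500 bp, 72.6% to 76.1% had a tag in a 1000-cell library, and of sites with at least 10 others 5.30% to 7.62%. At these crowded sites 5mC was 58.7% and 50.7% in HepG2, against 42.9% and 36.6% in H1ES, the opposite order to the isolated sites, at 34.4% and 35.7% in HepG2 and 96.6% and 96.8% in H1ES. At 10 members no tag fell within 1000 bp of the start in any 1000-cell library. For 12 members, CDH1, CDH3 and CDH17 among them, the reference tables used gave no strand, so whichever end is richer in CCGG was read instead, and for DSG4, where neither was, both ends were pooled. In common annotation this is the 3′ end for CDH15 and CDH16. Of all starts with 20 tags in every library, 44.2% rose and 5.44% fell in unmethylated share, 49.7% in all, and of the members only CDH15 could be tested. Its window held 4.41% and 4.55% unmethylated tags in HepG2 and 0% of 51 and 22 tags in H1ES (adjusted p = 0.0484), a call lost in 9 of 10 alternatives.

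With 5 tags in every library as the minimum, 8 members could be read, and 27.2% of all starts rose and 4.34% fell. CDH16 held 69.0% and 75.9% unmethylated tags in HepG2 over 29 tags each, against 0% of 18 and of 23 tags in H1ES (adjusted p = 3.14e-08). CDH17 held 65.0% of 20 and 33.3% of 6 tags in HepG2, against 9.09% of 22 and 0% of 16 tags in H1ES (adjusted p = 0.000933). Both epithelial genes were thus more unmethylated at the ends read in HepG2, without overlap of the groups. CDH8 fell, with 54.2% of 24 and 55.0% of 20 tags in HepG2, against 95.2% of 21 and 92.9% of 14 tags in H1ES (adjusted p = 0.00278). CDH8 was therefore less unmethylated at its start and more unmethylated along its body in HepG2. CDH3 held 94.4% and 86.7% in HepG2 and 100% and 100% in H1ES, CDH24 78.9% and 100% in HepG2 and 91.7% and 85.7% in H1ES, and CDH11 50% and 30% in HepG2 and 66.7% and 27.3% in H1ES. CDH26 held 35.3% and 0% in HepG2 and 0% and 12.5% in H1ES. These last 4 and CDH15 did not pass the test at this minimum. With 1 library left out, 0 genes in all were called at this minimum in 3 of 4 cases, and the adjusted p of CDH16 ran from 0.0405 to 0.159, that of CDH17 from 0.0536 to 0.341 and that of CDH8 from 0.0658 to 0.162. At CDH1, the site 325 bp inside the end taken as its start was unmethylated in 10 of 10 and 5 of 6 tags in HepG2, against 4 of 4 and 2 of 2 tags in H1ES. The site at -784 bp, outside that end, was unmethylated in 2 of 7 and 0 of 7 tags in HepG2, against 0 of 9 and 0 of 2 tags in H1ES. Over the whole CDH1 window the unmethylated share was 72.2% of 18 and 35.7% of 14 tags in HepG2, against 30.8% of 13 and 50% of 4 tags in H1ES, and the groups overlapped.

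Promoter sequences show what the assay could read. RefSeq promoter windows of GRCh38.p14, from 250 bases before to 50 after a gene or transcript start, were at hand for 18 members with 30 windows. CCGG (its own reverse complement, so both strands at once) was in 15 of the 30, or 50%, and in 74.2% of 21156 autosomal promoter windows. The windows printed, 1 each of CDH8, CDH4 and CDH18, are neural ones with tags at a cut site. The cut site CCGG is in capitals and each window runs 5′ to 3′ on the gene's strand.
CDH8 promoter, chr16:62036389-62036688, minus strand: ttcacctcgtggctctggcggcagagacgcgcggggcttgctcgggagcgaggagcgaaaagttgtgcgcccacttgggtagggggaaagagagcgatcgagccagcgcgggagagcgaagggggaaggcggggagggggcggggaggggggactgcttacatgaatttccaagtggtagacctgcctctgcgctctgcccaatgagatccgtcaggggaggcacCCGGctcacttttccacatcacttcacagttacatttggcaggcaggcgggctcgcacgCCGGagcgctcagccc
CDH4 inner promoter, chr20:61499171-61499470, plus strand: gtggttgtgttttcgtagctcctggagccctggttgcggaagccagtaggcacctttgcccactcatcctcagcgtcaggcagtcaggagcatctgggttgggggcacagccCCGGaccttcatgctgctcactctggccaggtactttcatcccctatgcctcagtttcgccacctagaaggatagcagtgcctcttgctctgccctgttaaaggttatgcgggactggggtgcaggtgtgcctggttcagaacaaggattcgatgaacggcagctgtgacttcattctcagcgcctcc
CDH18 inner promoter, chr5:19988151-19988450, minus strand: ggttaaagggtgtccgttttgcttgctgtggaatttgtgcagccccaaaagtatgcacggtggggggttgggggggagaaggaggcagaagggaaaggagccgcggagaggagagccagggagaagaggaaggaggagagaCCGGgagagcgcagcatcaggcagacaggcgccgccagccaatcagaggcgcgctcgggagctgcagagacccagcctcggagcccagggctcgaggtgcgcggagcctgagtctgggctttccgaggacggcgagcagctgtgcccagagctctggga

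At the inner promoter of CDH4 the single CCGG was unmethylated in 12 of 15 and 11 of 12 tags in HepG2, against 0 of 1 and 0 of 4 tags in H1ES. At the CDH20 promoter the single CCGG was unmethylated in 3 of 9 and 2 of 6 tags in HepG2, against 4 of 4 and 5 of 7 tags in H1ES. CDH4 and CDH20 thus differed in opposite directions here, on few tags and with no test. At the inner promoter of CDH18 all tags were unmethylated, 9 and 4 in HepG2 and 8 and 6 in H1ES, inside a gene with 26.2% and 25.2% 5mC in HepG2. At CDH8 the site 25 bases before the start was unmethylated in 1 and 2 tags in HepG2 and in 4 and 1 tags in H1ES, with no other tag. Of the 37 CCGG in the DSG2 region, 6 stand within its promoter window, and these 6 drew 0 tags in all 4 libraries. The full methylation of DSG2 therefore describes its body and says nothing of its promoter.

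Hydroxymethylation of the members was low in H1ES and lower still in HepG2. Over all autosomal tags 5hmC was 0.221% and 0.277% in HepG2, against 1.69% and 1.52% in H1ES. Pooled 5hmC was 0.152% ± 0.0778 in HepG2 and 1.498% ± 0.176 in H1ES for epithelial members, 0.136% ± 0.0377 in HepG2 and 1.65% ± 0.195 in H1ES for neural members, and 0.156% ± 0.00788 in HepG2 and 2.19% ± 0.0265 in H1ES for other members (SD, n = 2 each). In HepG2 the 3 classes lay within their SDs of each other. By the same edgeR test, 11 of 30 members fell and 0 rose, where 16% of 14255 genes fell and 0 rose. Those that fell were CDH3 of the epithelial members, CDH4, CDH8, CDH12, CDH18, CDH20 and CDH22 of the neural members, and CDH5, CDH6, CDH13 and CDH23 of the others. The median log2 odds was -3.003 for epithelial, -3.361 for neural and -3.561 for other members, and -2.417 for all genes. In the H1ES libraries the epithelial members held 30 and 24 5hmC tags in all, and the neural members 165 and 108. These counts of calls therefore do not show a difference between classes. Whether members fell more often than genes with as many tags was not tested.

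Of the 11 members that fell, CDH23 and CDH22 held the most 5hmC in H1ES. CDH23 held 0.272% and 0.320% in HepG2, against 3.09% and 3.94% in H1ES (log2 odds -3.56, SE 0.404, adjusted p = 1.97e-15). CDH22 held 0% and 0.331% in HepG2, against 3.23% and 3.69% in H1ES (adjusted p = 1.37e-08). CDH4 held 0.115% and 0.139% in HepG2, against 1.86% and 1.66% in H1ES (adjusted p = 2.95e-23). In all 3 the HepG2 libraries lay below those of H1ES. CDH8 had 0 5hmC tags of 623 and of 445 in HepG2, which allows up to 0.482% and 0.674%, against 1.60% and 1.18% in H1ES. CDH1 was at 0.141% and 0.167% in HepG2 and 0.393% and 1.15% in H1ES and did not pass the test (adjusted p = 0.225). Relative to library odds 0 members were called in either direction, with 3 at an unadjusted p under 0.05, where 0.021% of all genes rose and 0 fell, 0.021% in all. With 1 library left out 5 to 7 members fell.

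**Figure D5:**
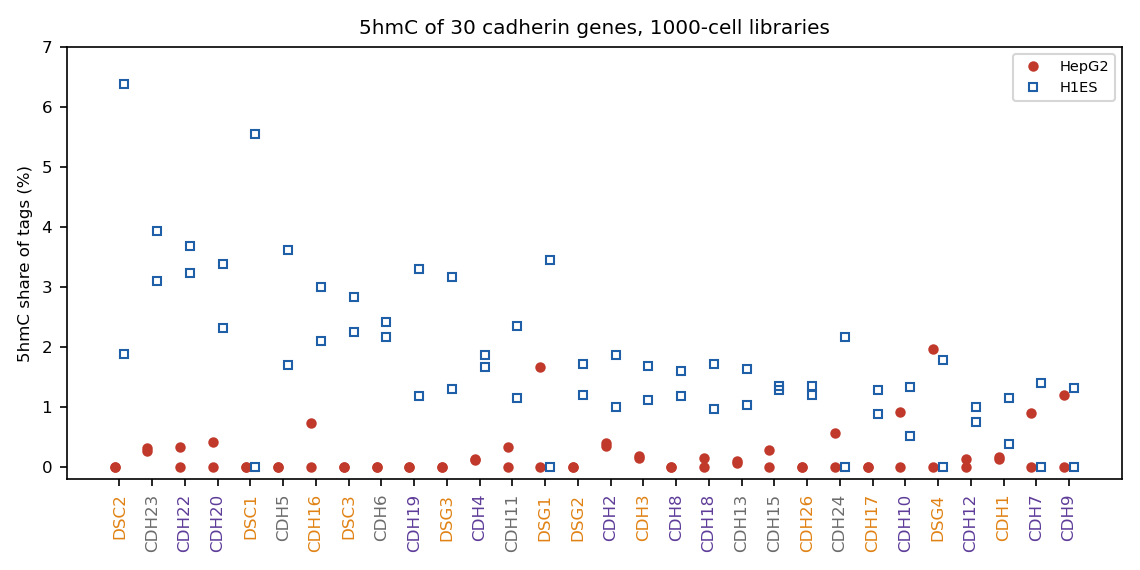
5hmC share of tags (y axis, percent) of each member (x axis, in order of the H1ES mean) in the 1000-cell libraries; filled red circles are HepG2 libraries, open blue squares H1ES libraries. The HepG2 values lie at or below 1.96%, and those of H1ES reach 6.38% in DSC2, which rests on 47 tags.

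Genes for the proteins that cadherins work with changed about as genes at large did. Of 14 partners (catenins, plakophilins, plakoglobin, desmoplakin and the desmosomal membrane protein PERP), 10 fell, 0 rose and 4 did not pass the test, where 54.9% of all genes fell, and the median log2 odds was -1.44 for partners and -1.24 for all genes. On the scale of library odds 9 of them rose and 4 fell, where 63.1% of all genes rose and 17.5% fell. The smallest p-values were those of CTNNA2, CTNNA3 and CTNND2, catenin genes known mainly from brain for CTNNA2 and CTNND2 and from heart and testis for CTNNA3. CTNNA2 held 35.8% and 35.6% in HepG2, against 95.03% and 95.9% in H1ES (adjusted p = 5.83e-95). CTNNA3 held 40.0% and 35.2% in HepG2, against 97.8% and 97.9% in H1ES, and CTNND2 46.5% and 46.0% in HepG2, against 96.1% and 96.1% in H1ES. Of the 6 transcription factors known to repress CDH1, 5 had enough tags. TWIST2, ZEB2 and SNAI1 fell, 0 rose, and ZEB1 and TWIST1 did not pass the test. Measured against library odds, 3 rose and 1 fell. With 5 genes tested, these counts are near the shares of all genes. ZEB2 held 17.2% and 24.0% in HepG2, against 80.3% and 79.9% in H1ES (adjusted p = 2.10e-40). TWIST2 averaged 46.7% ± 2.16 in HepG2 and 91.0% ± 0.288 in H1ES, and SNAI1 58.3% ± 0.303 in HepG2 and 77.2% ± 0.836 in H1ES (SD, n = 2 each).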

How the data were processed

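Each deposited table lists CCGG sites of hg38 without a header. Per the submitters' processing notes the authors worked with Bowtie2 2.3.4.1, with cutadapt 1.5 and with UMI-tools 0.5.4, in an order not given, and how tags were counted is not given in the sources used here. Per site, the authors deposited a fraction for each kind of tag (unmethylated, 5mC, 5hmC) and a count of all tags. With no header, the order of the marks was taken from the known excess of 5mC over 5hmC. Fraction times count was whole within 0.00141, which gave tags of each kind. The 5 mouse libraries were not used.

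Tags were summed over gene regions of RefSeq GRCh38.p14. For the 18 members with a strand, 2000 bp upstream were added, and for the 12 without one 2000 bp on both sides. The main test was edgeR 4.0.16 (R 4.3.3) on mark against other tags, with a term per library and at least 20 tags in every 1000-cell library. SE is the log2 odds over the root of the F statistic. The test was also run on simulated data, in which the spread between libraries was set by hand and not estimated from these libraries. The outcome of that run is not given here. Alternatives were other tag minimums, DESeq2 1.42.0 with size factors of 1, limma 3.58.1 on logit shares (pseudocount 0.5), odds relative to the library, a replicate block, libraries left out, the span alone, isolated sites and smaller start windows. Minimums of 5 tags with a library left out, and classes without CDH1, CDH2 or CDH4, were added after seeing the data. Values in every library are given for CDH1, CDH2, CDH3, CDH17, DSC2, DSG2, the up to 6 largest falls and 4 largest rises; for lists, the 3 smallest p. Members, classes and lists were chosen with earlier results of these data known. Python 3.11.15 with SciPy 1.17.1 gave exact intervals, which cover counting error only.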

Additional observations from a re-analysis of the deposited data

Results flagged for a closer look

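Among 38 sets of 5 single cells examined for a value far from the others, 3 held one, and chance flags about 1 in 20. CDH8 held 48.7% 5mC in HepG2 cell 1, with the nearest HepG2 cell at 28.3%; the value rests on 39 tags. CDH4 held 36.6% in HepG2 cell 5, with the nearest HepG2 cell at 32.9%; this cell is 1 of the 2 deep HepG2 cells and its pooled neural share, 35.3%, was also the highest of the 5. CDH8 held 90.1% in H1ES cell 5, with the nearest H1ES cell at 93.1%.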

How the results depend on the processing

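Over the single members, 363 alternative values for 5mC kept their direction and their side of the threshold, 4 passed the threshold anew, 7 no longer passed it and 8 turned direction; for 5hmC the counts were 84 unchanged, 13 no longer past it and 2 turned. The cause was not tested for any of these. Relative to library odds the sign of 5mC turned in CDH24 (1.89), CDH1 (1.66), CDH2 (3.15), DSC3 (2.15) and DSC1 (0.74), and of 5hmC in CDH1 (0.54) and CDH2 (0.74). With a library left out CDH2 ran from -0.317 to 0.0676, turned without HepG2 library 1 (0.07) or H1ES library 2 (0.01), and DSC2 from -0.25 to 2.13, turned without HepG2 library 1.

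Genes that fell in 5mC were 8631, against 2751 relative to library odds. Genes that rose were 440, against 238 with 50 tags, 221 in DESeq2, 9914 relative to library odds, 193 at isolated sites and 256 to 394 with a library left out. Members that rose were 0, against 1 in limma, 6 relative to library odds and 0 to 1 with a library left out. Genes that fell in 5hmC were 2285, against 1095 in DESeq2, 0 relative to library odds and 774 to 1703 with a library left out; those that rose were 0, against 3 in limma, 3 relative to library odds and 0 to 1. Members that fell in 5hmC were 11, against 6 in DESeq2, 0 relative to library odds and 5 to 7. Same-numbered libraries did not deviate together (r = 0.00945 for 5mC). This cannot show that the numbers do not pair them, since counting noise at genes with few tags could hide a shared deviation. The replicate block gave 1089 genes and 6 members that fell in 5hmC, and 0 members that rose at starts.

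At starts, genes that rose were 317, against 2655 with 5 tags, 3234 with 1 tag, 76 relative to library odds, 18 within 500 bp and 0 to 747 with 5 tags and a library left out. Genes that fell were 39, against 424, 505, 380, 2 and 0 to 90. Members that rose were 1, against 2 with 5 tags, 3 with 1 tag, 0 in DESeq2, relative to library odds or within 500 bp, and 0 to 1 with a library left out. The 1 was CDH15 and the 2 were CDH16 and CDH17. For CDH15 and CDH16 the end read is the 3′ end in common annotation, so these are not calls at their starts. Members that fell were 0, against 1 with 5 tags, 2 with 1 tag and 0 to 1. A minimum of 50 tags left too few starts and was not run.

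Pooled 5mC of epithelial members was 55.8% in HepG2 without CDH1, and in H1ES 93.7% as a mean over genes and 96.6% at isolated sites. Neural members had 33.0% as a mean over genes, 29.9% without CDH4 and 29.6% without CDH2 in HepG2, and 94.8%, 96.1% at isolated sites and 94.8% without CDH4 in H1ES. Other members had 42.7% as a mean over genes, 34.2% over the span alone and 32.8% at isolated sites in HepG2, and 92.2%, 95.9%, 96.7% and, with CDH6 and CDH11 moved to the neural members, 96.2% in H1ES. Few tags limit gene starts, where crowded sites rarely carry one, and the desmosomal genes, with 32 to 106 tags per library.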
